A study of Mus musculus with 12 samples.

Results

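Flavin-containing monooxygenases and aldehyde oxidases are enzymes that oxidise drugs, dietary amines, aldehydes and nitrogen heterocycles outside the cytochrome P450 system. Their transcripts were followed here through 6 genes, Fmo1, Fmo2, Fmo4, Fmo5, Aox1 and Aox3, chosen by gene symbol from the 23420 genes of each deposited count table of mouse liver, and all 6 were found. The flavin monooxygenases sit in the endoplasmic reticulum membrane, carry FAD, and use NADPH and oxygen to add an oxygen atom to a nucleophilic nitrogen, sulfur or selenium. Fmo1 is a broad-substrate enzyme of rodent liver and kidney, Fmo2 is best known from lung, Fmo4 is a weakly expressed family member, and Fmo5 is an abundant liver form that catalyses Baeyer-Villiger oxidations more readily than the typical amine and thioether oxidations. The aldehyde oxidases are cytosolic enzymes that carry FAD, iron-sulfur clusters and a molybdenum cofactor, and Aox1 and Aox3 are the pair known from rodent liver. In mouse liver, several genes of these families are known for sex-dependent expression.

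The livers came from wild type (WT) and Siah2-/- (KO) C57BL/6 mice at about 20 weeks of age, collected at ZT10, which is 10 hours after lights on, from mice on normal chow in a 12-hour light and 12-hour dark cycle. Siah2 encodes a RING-type ubiquitin ligase, and the KO mice carry the deletion in all tissues. There were 3 mice in each of 4 groups, WT females (WTF), KO females (KOF), WT males (WTM) and KO males (KOM), and 1 QuantSeq library per mouse, a 3′ tag method in which each read stands for 1 transcript end. The study asked how Siah2 loss alters liver transcripts in each sex. WT and KO mice were bred as related homozygous lines after an intercross of heterozygotes, so line and genotype cannot be told apart. The labels speak of RNA pooled from mice, whereas the study describes individual livers for this experiment, and each library was taken here as 1 mouse. Females and males were deposited as separate tables, so a difference in handling between the tables cannot be told apart from sex.

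The libraries held between 1293688 and 4056144 reads on genes, with a median of 2670267.5, and library WTF 1091 stood apart from the other WTF libraries (Pearson r of 0.916 to 0.918, against 0.949 to 0.974 for all other pairs within a group). Siah2 itself averaged 13.6 ± 2.96 CPM (read counts scaled to a total of 1000000) in WTF and 10.7 ± 1.57 in KOF, and 21.8 ± 5.18 in WTM and 13.9 ± 4.08 in KOM (SD, n = 3), with no difference past the test. Reads remained in every KO library, and it was not known whether the 3′ tag lies in the deleted part of the gene, so this gene does not check the genotype labels. The hepatocyte markers summed to between 23875 and 40926 CPM with none at 0 in all libraries, and the lung markers summed to at most 0.722 CPM.

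All of these genes but Fmo5 lie in 2 clusters on chromosome 1 (RefSeq positions, build GRCm38.p6, the assembly also called mm10). The aldehyde oxidase cluster starts with Aox1 at chr1:58029809-58106410, followed by Aox3 at chr1:58113135-58202221 and by Aox4 and Aox2 (counted under its older symbol Aox3l1), which had 1 read and 0 reads over the 12 libraries. The flavin monooxygenase cluster holds Fmo4 at chr1:162793188-162816072, Fmo1 at chr1:162829561-162866610, Fmo2 at chr1:162874317-162898758 and Fmo6, with 7 reads in all. Fmo5 stands alone at chr3:97609938-97655287. The last 600 bases of the annotated transcripts of the 6 genes shared no run of 30 bases between any pair (GENCODE M1 transcripts). These annotated ends can therefore be told apart from each other by sequence. Other genes, and the transcript ends used in these livers, were not compared.

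The promoter windows are shown for the neighbours Aox1 and Aox3, for Fmo5 and for Fmo2, since these genes gave differences between the sexes described further on. Fmo1 also gave such a difference, but no promoter window was available for it. Each window holds 250 bases before and 50 after a RefSeq start, 5′ to 3′ on the gene's strand, and capitals mark the letters of a motif searched on both strands. Aox1 is read on the plus strand of chr1:58029719-58030018, and Aox3 on the plus strand of chr1:58112886-58113185. Fmo2 (the second of 2 annotated starts) is read on the minus strand of chr1:162898444-162898743, and Fmo5 on the plus strand of chr3:97628769-97629068. The Fmo5 window lies inside the gene, whose span starts at chr3:97609938, so the bases before the gene's 5′ end are not shown.
Aox1: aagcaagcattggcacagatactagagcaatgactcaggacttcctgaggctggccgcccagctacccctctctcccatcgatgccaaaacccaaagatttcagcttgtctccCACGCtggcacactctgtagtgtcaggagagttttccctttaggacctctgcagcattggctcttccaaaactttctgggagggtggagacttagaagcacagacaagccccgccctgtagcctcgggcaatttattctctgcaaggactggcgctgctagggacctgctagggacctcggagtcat
Aox3: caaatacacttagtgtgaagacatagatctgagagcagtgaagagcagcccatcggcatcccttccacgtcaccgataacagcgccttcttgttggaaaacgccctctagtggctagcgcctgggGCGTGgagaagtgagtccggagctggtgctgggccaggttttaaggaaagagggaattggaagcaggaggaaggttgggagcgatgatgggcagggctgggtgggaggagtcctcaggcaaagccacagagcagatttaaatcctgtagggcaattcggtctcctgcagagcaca
Fmo2: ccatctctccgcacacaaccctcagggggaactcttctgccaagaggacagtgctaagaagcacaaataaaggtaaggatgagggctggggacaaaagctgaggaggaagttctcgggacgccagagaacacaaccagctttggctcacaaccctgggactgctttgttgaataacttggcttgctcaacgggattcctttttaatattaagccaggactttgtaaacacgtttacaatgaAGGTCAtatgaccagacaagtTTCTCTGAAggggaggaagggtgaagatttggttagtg
Fmo5: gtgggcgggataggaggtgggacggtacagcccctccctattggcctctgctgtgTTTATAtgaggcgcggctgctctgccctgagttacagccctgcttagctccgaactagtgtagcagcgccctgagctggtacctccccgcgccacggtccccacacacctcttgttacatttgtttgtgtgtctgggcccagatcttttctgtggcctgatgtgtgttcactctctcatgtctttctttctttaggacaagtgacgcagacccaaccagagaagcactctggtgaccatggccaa

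The capitals in Aox1 (CACGC, at position -137 from the start) and in Aox3 (GCGTG, at position -125) are the core letters bound by the aryl hydrocarbon receptor, in opposite directions, and 32.4% of the 32851 promoter windows of the same length hold these letters. In Fmo2, the capitals are AGGTCA at position -9, a core element of nuclear receptor sites found in 16.3% of windows. They are also TTCTCTGAA at position 13, a match to TTCNNNGAA, the letters that STAT5 and BCL6 bind, found in 8.30% of windows. The Fmo4 window, not shown, also held the nuclear receptor element, as TGACCT on the other strand at position -75. The window at the other annotated start of Fmo2, chr1:162898709-162899008, held none of the motifs searched. In Fmo5, TTTATA is a TATA box read on the other strand, at position -195, and 13.6% of windows hold it. The core of the antioxidant response element, TGACNNNGC, and the E-box CACGTG were also searched and were in none of the 6 windows available for Aox1, Aox3, Fmo2, Fmo4 and Fmo5, against 12.4% and 7.15% of all windows. The motifs searched did not overlap each other in these windows, and a match is a description of letters only.

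Of the 6 genes, Fmo5 gave by far the most reads. In WTF, its levels were 192, 317 and 202 CPM (mice 1089, 1090 and 1091). In KOF they were 288, 377 and 336 CPM (mice 1070, 1104 and 1105). In WTM they were 399, 464 and 429 CPM (mice 1055, 1086 and 1087) and in KOM 483, 480 and 471 CPM (mice 1075, 1076 and 1081). All 6 males were above all 6 females, and the KOM were the most alike, with a coefficient of variation of 1.32% against 29.1% in WTF. The group means ran in the order WTF (237 ± 69.0), KOF (334 ± 44.6), WTM (431 ± 32.7) and KOM (478 ± 6.30 CPM, SD, n = 3). WTF and KOF overlapped, while KOF and WTM, and WTM and KOM, did not. All CPM values use the total of the genes that passed the filter, scaled by TMM, and levels of different genes are compared as reads per transcript end, with no division by length.

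Fmo1 had the opposite order of the sexes. Its levels were 69.3, 73.5 and 49.4 CPM in WTF and 58.7, 82.1 and 55.4 CPM in KOF. In males they were 46.6, 40.7 and 33.7 CPM in WTM and 39.6, 33.9 and 43.4 CPM in KOM. All 6 females were above all 6 males, with the lowest female (49.4 CPM) close to the highest male (46.6 CPM). The group means were 65.4 ± 14.6 in KOF, 64.1 ± 12.9 in WTF, 40.4 ± 6.46 in WTM and 38.9 ± 4.79 CPM in KOM (SD, n = 3), and WT and KO overlapped in both sexes.

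Fmo2 was low in males and variable in females. The 3 WTF had 24.9, 28.2 and 8.92 CPM and the 3 KOF 19.8, 29.1 and 49.4 CPM. The WTM had 1.53, 10.6 and 3.40 CPM and the KOM 6.79, 3.47 and 1.73 CPM, from 2 to 21 reads per library. One male (WTM 1086) was above one female (WTF 1091), and all other females were above all males. The order of the means was KOF (32.7 ± 15.1), WTF (20.7 ± 10.3), WTM (5.16 ± 4.76) and KOM (3.99 ± 2.57 CPM, SD, n = 3), and the neighbours within each sex overlapped. Fmo2 is a gene best known from lung. The lung markers Sftpc and Scgb1a1 were at 0 in all 12 libraries, and with Sftpb the 3 lung markers summed to at most 0.722 CPM.

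Fmo4 was close to the limit of these libraries, with 40 reads in all and 0 to 8 reads per library. Its levels were 1.08, 0.900 and 0.637 CPM in WTF, 0.812, 1.47 and 4.82 CPM in KOF, 0.765, 2.51 and 2.48 CPM in WTM and 0.377, 0.868 and 0 CPM in KOM, where 0 reads in mouse 1081 allow up to 3 reads. It did not pass the filter on low counts in any comparison, so a difference between groups was not detectable at this depth.

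Aox3 was the more abundant aldehyde oxidase. Its levels were 82.3, 75.0 and 30.3 CPM in WTF and 38.2, 22.1 and 59.0 CPM in KOF. In males they were 140, 104 and 145 CPM in WTM and 146, 153 and 152 CPM in KOM. All 6 males were above all 6 females, and, as for Fmo5, the KOM varied least, with a coefficient of variation of 2.71%. The means ran from 39.7 ± 18.5 in KOF through 62.5 ± 28.2 in WTF and 130 ± 22.3 in WTM to 150 ± 4.07 CPM in KOM (SD, n = 3). KOF and WTF overlapped, WTF and WTM did not, and WTM and KOM did not, by less than 1 CPM.

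Aox1 had levels of 23.8, 21.3 and 9.56 CPM in WTF and 14.9, 12.5 and 28.9 CPM in KOF. The WTM had 31.3, 40.2 and 20.7 CPM and the KOM 29.8, 40.4 and 42.1 CPM. The sexes overlapped in WT and did not overlap in KO, where the lowest male (29.8 CPM) was just above the highest female (28.9 CPM). The order of the means was WTF (18.2 ± 7.62), KOF (18.8 ± 8.85), WTM (30.8 ± 9.75) and KOM (37.4 ± 6.68 CPM, SD, n = 3), with overlap between the neighbours.

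**Figure D1:**
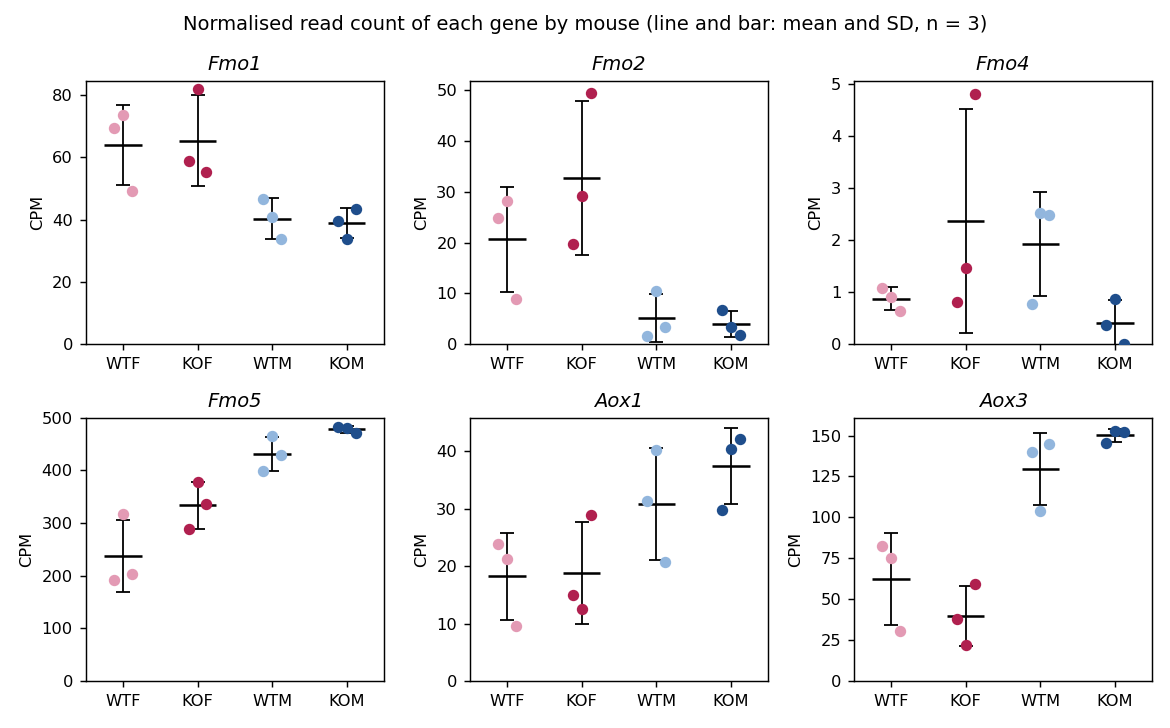
Normalised read count (CPM, vertical axis) of the 6 genes in each of the 12 mice by group, with a horizontal line at the group mean and a bar of 1 SD (n = 3). Fmo5 and Aox3 were above all females in all 6 males, Fmo1 was above all males in all 6 females, and Fmo4 stayed at or below 4.82 CPM.

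The comparison of the sexes asks which of these enzymes are sexually dimorphic in liver with and without Siah2. In KO mice, all 5 genes that passed the filter differed between females and males. Fmo1 was 1.68-fold higher in KO females (log2 difference 0.75, SE 0.20, adjusted p = 0.0244) and Fmo2 8.35-fold higher (3.06, SE 0.44, adjusted p = 0.000369). Aox3 was 3.86-fold lower in KO females (log2 difference -1.95, SE 0.25, adjusted p = 0.000146), Aox1 2.08-fold lower (-1.06, SE 0.28, adjusted p = 0.0249) and Fmo5 1.43-fold lower (-0.51, SE 0.15, adjusted p = 0.0393). These 5 of 5 calls, by the quasi-likelihood test of edgeR with p-values adjusted over 9102 genes, stand beside 11.5% of all genes called (5.69% higher and 5.78% lower in females). DESeq2 and limma-voom with quality weights also called 5 of 5, beside 9.91% and 13.3% of genes. With no filter beyond 1 count, Fmo5 was not called (adjusted p = 0.0531) and the other 4 were, beside 7.56% of genes. With all 12 libraries in the fit, 2 of 5 were called (Fmo2 and Aox3), beside 3.59% of genes, and Fmo1 (adjusted p = 0.0863), Aox1 (0.135) and Fmo5 (0.192) were not. The 3 females and 3 males did not overlap for any of the 5, as for 30.7% of all genes. In each comparison of the sexes, Fmo2 passed the filter through its females, which a gene low in both sexes could not have done. The filter therefore favoured a difference for Fmo2 in these counts. The genes were also chosen with earlier results of these data known.

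The calls for Fmo2 and Aox3 did not depend on any 1 of the 6 KO libraries, with adjusted p-values of 0.000337 to 0.00435 and 1.628e-05 to 0.002 when each was left out in turn. Fmo1 lost its call without KOM 1075 (adjusted p = 0.0673), KOM 1076 (0.0813), KOM 1081 (0.0574) or KOF 1104 (0.144). Aox1 lost it without KOM 1076 (adjusted p = 0.0707), KOM 1081 (0.11), KOF 1070 (0.119) or KOF 1104 (0.127). Fmo5 lost it in 5 of these 6 fits, without KOM 1075 (adjusted p = 0.0925), KOM 1076 (0.0891), KOM 1081 (0.111), KOF 1070 (0.156) or KOF 1104 (0.0619), and kept it without KOF 1105 (0.0495). In all of these fits, the direction stayed the same.

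In WT mice, the 5 genes had differences of the same sign and none passed the test, beside 1.39% of all 9335 genes called. The log2 difference of females from males was 0.70 for Fmo1 (SE 0.25, adjusted p = 0.223) and 1.98 for Fmo2 (SE 0.60, adjusted p = 0.161). It was -0.83 for Fmo5 (SE 0.26, adjusted p = 0.167), -0.72 for Aox1 (SE 0.38, adjusted p = 0.407) and -1.03 for Aox3 (SE 0.34, adjusted p = 0.192). At an unadjusted p under 0.05, 4 of the 5 (all but Aox1) would have been counted, where 15.2% of all genes were. Females and males did not overlap for 3 of the 5 (Fmo1, Fmo5 and Aox3), as for 22.7% of genes. The count moved with the libraries, the filter and the test. Without WTF 1091, Fmo1 (0.85, adjusted p = 0.0327) and Fmo2 (2.33, adjusted p = 0.014) were called, beside 7.73% of genes. With no filter beyond 1 count, Fmo2 (adjusted p = 0.000219) and Aox3 (0.0237) were called, beside 3.17% of genes, and with all 12 libraries in the fit Fmo5 was (adjusted p = 0.0274), beside 5.15%. DESeq2 called Fmo2 (1.96, adjusted p = 0.0499, beside 3.74% of genes), and limma-voom, which gives deviating libraries less weight, called Fmo1, Fmo2 and Fmo5 (0.85, 2.52 and -0.85, adjusted p = 0.0248, 0.00834 and 0.0284, beside 8.59% of genes).

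With both genotypes in 1 fit and a term for genotype, a comparison added after the data were seen, all 5 genes differed between the 6 females and the 6 males, where 6.09% of all genes were called. Fmo2 did not pass the filter in males alone and entered this fit through its females, so the filter favoured its call. The log2 differences were 0.71 for Fmo1 (adjusted p = 0.0144), 2.52 for Fmo2 (adjusted p = 0.00144), -0.69 for Fmo5 (adjusted p = 0.0133), -0.89 for Aox1 (adjusted p = 0.0497) and -1.49 for Aox3 (adjusted p = 0.00219). Without WTF 1091, all 5 were again called, beside 9.29% of genes, with log2 differences from -1.37 for Aox3 to 2.73 for Fmo2. For 3 of the 5 genes (Fmo1, Fmo5 and Aox3), the 6 females and 6 males did not overlap, against 4.49% of all genes.

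Markers of other cells were set beside these differences. The erythroid marker Alas2, the only one of its list with reads, was at 8.47 to 25.2 CPM in females and 83.9 to 154 CPM in males, with no overlap. The sums of the other lists overlapped between all females and all males, but several did not overlap within a genotype. The Kupffer and other immune markers (7 measured, none at 0 in all libraries) summed to between 272 and 476 CPM in females and between 67.2 and 297 CPM in males, and the endothelial markers (7 measured) to between 229 and 314 CPM in females and between 178 and 244 CPM in males. The 8 hepatocyte markers summed to between 27963 and 40926 CPM in females and between 23875 and 31935 CPM in males. Over the 12 libraries, the stellate and fibroblast markers summed to 144 to 378 CPM, the bile duct markers to 9.87 to 56.3 CPM, the fat markers to 47.8 to 127 CPM (Plin1 at 0) and the pancreatic acinar markers to 12.04 to 57.4 CPM (Cpa1, Prss1 and Prss2 at 0). The part of these markers in the differences of the 5 genes was not tested, and in whole liver fewer cells of a type and less RNA per cell cannot be told apart.

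The comparison of KO with WT asks whether Siah2 loss alters these enzymes in either sex. In females, none of the 5 genes tested passed edgeR's test, and 0.0% of all 9465 genes did. The log2 difference of KOF from WTF was 0.48 for Fmo5 (95% interval -0.10 to 1.06, adjusted p = 0.417) and -0.68 for Aox3 (-1.63 to 0.27, adjusted p = 0.488). It was 0.62 for Fmo2 (-0.38 to 1.63), 0.02 for Fmo1 (-0.56 to 0.59) and -0.0039 for Aox1 (-0.92 to 0.92), with adjusted p-values of 0.558, 0.985 and 0.998. None of the 5 had an unadjusted p under 0.05, where 15.6% of all genes did, and none had groups that did not overlap, where 23.3% of genes did. DESeq2 also called none of them (3.7% of genes).

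Aox3 was the one gene among these whose call in females depended on the test. With limma-voom and quality weights, it was lower in KOF by 2.26-fold (log2 difference -1.17, adjusted p = 0.0303), where 11.2% of all genes were called. The other values moved without a call, to -0.48 for Aox1 (adjusted p = 0.319), 0.14 for Fmo2 (0.809), -0.08 for Fmo1 (0.831) and 0.49 for Fmo5 (0.156). Without WTF 1091, the library with the lowest Aox3 of its group, edgeR gave a log2 difference of -1.02 (adjusted p = 0.0608). The intervals in females reach up to 1.06 for Fmo5 and down to -1.63 for Aox3, and a change within them was not detectable with these 6 livers.

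In males, none of the 4 genes tested passed edgeR's test, and 0.0% of all 8823 genes did. KOM differed from WTM by a log2 value of 0.14 for Fmo5 (95% interval -0.16 to 0.43), 0.20 for Aox3 (-0.15 to 0.56), 0.30 for Aox1 (-0.26 to 0.85) and -0.04 for Fmo1 (-0.48 to 0.40), each with an adjusted p of 0.9999. For Fmo5 and Aox3, all 3 KOM were above all 3 WTM. The 2 groups did not overlap, in either direction, for 8.87% of all genes. None of the 4 had an unadjusted p under 0.05, against 4.05% of genes. DESeq2 called 0 of 6 (0.037% of genes) and limma-voom with quality weights 0 of 4 (0.0% of genes). Fmo2 and Fmo4 did not pass the filter in males.

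The difference of the KO effect between the sexes was tested directly. None of the 5 genes passed, beside 0.255% of all 9806 genes, and none had an unadjusted p under 0.05, beside 14.1%. DESeq2 called none of them either (3.32% of genes). The largest value was that of Fmo2 (1.09, 95% interval -0.71 to 2.90, adjusted p = 0.629), and that of Aox3 was -0.89 (-1.91 to 0.13, adjusted p = 0.44). Fmo5 had 0.34 (-0.28 to 0.97), Aox1 -0.30 (-1.40 to 0.80) and Fmo1 0.07 (-0.62 to 0.76), with adjusted p-values of 0.668, 0.861 and 0.956. This contrast is also the change of the sex difference between WT and KO, so the calls in KO and their absence in WT are not shown to differ. With limma-voom and quality weights, Aox3 was called (-1.39, adjusted p = 0.0299, beside 5.69% of genes), and edgeR without WTF 1091 gave -1.22 (adjusted p = 0.0563).

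With both sexes in 1 fit and a term for sex, Fmo5 had a log2 difference of KO from WT of 0.32 (SE 0.16, 95% interval -0.01 to 0.65, adjusted p = 0.691). Fmo2 had 0.26 (-0.62 to 1.13), Aox1 0.16 (-0.38 to 0.70), Aox3 -0.21 (-0.76 to 0.34) and Fmo1 -0.0003 (-0.35 to 0.35). None of the 5 was called, beside 0.0102% of all genes, and none had an unadjusted p under 0.05, beside 7.2%. DESeq2 called 0 of 6 (0.0112% of genes) and limma-voom 0 of 5 (0.0102%).

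The make-up of the flavin monooxygenase reads was examined over Fmo1, Fmo2, Fmo4 and Fmo5. In males, Fmo5 took 89.1% to 92.6% of the reads of these 4 genes, Fmo1 took 6.53% to 10.4% and Fmo2 0.334% to 2.04%. In females, Fmo5 took 66.9% to 78.4%, Fmo1 12.4% to 24.1% and Fmo2 3.41% to 11.1%. The share of Fmo5 was higher in each male than in each female, and those of Fmo1 and Fmo2 were higher in each female than in each male. Fmo5 exceeded Fmo1 by 8.56 to 14.2 times in males and by 2.78 to 6.07 times in females.

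The summed level of the 4 genes was also set out. It was 288, 419 and 261 CPM in WTF and 367, 490 and 445 CPM in KOF. In males it was 448, 518 and 468 CPM in WTM and 529, 519 and 516 CPM in KOM. WTM lay above WTF and KOM above KOF, while KOF 1104 (490 CPM) was above 2 of the WTM, and WTF overlapped KOF. These summed values were not tested.

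**Figure D2:**
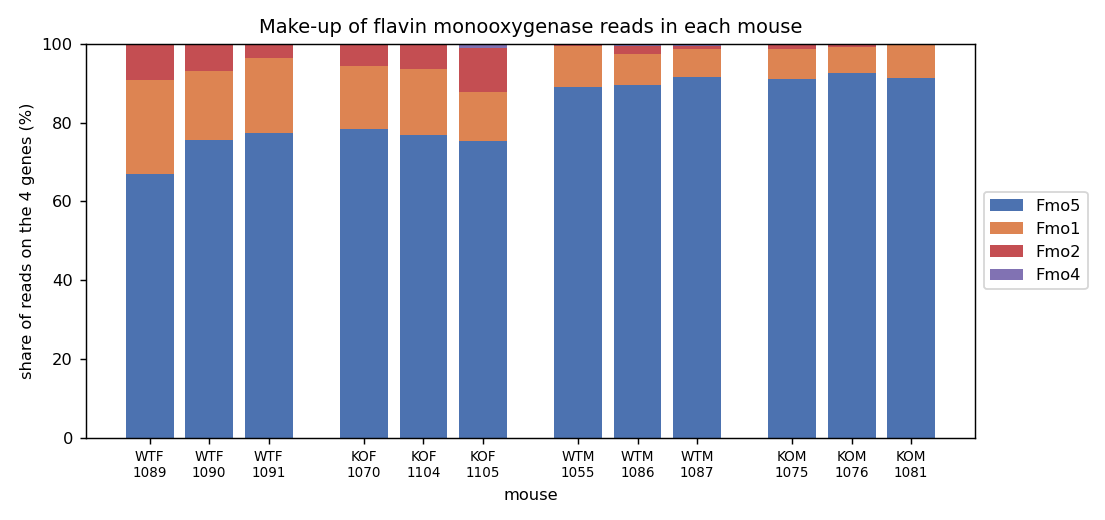
Share of the reads on Fmo1, Fmo2, Fmo4 and Fmo5 together (%, vertical axis, stacked to 100) taken by each gene in each of the 12 mice. Fmo5 took 89.1% to 92.6% in males and 66.9% to 78.4% in females.

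The 2 aldehyde oxidases were also set against each other, since they are neighbours and were both lower in KO females than in KO males. Aox3 gave 3.45, 3.52 and 3.17 reads per Aox1 read in WTF and 2.56, 1.76 and 2.04 in KOF. In males the ratio was 4.46, 2.59 and 6.99 in WTM and 4.89, 3.78 and 3.61 in KOM. The 3 KOF had the lowest ratios of the 12 mice, although KOF 1070 (2.56) was next to WTM 1086 (2.59). This order was noticed after the values were seen, and the Aox1 count behind it was 30 to 171 reads per library.

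**Figure D3:**
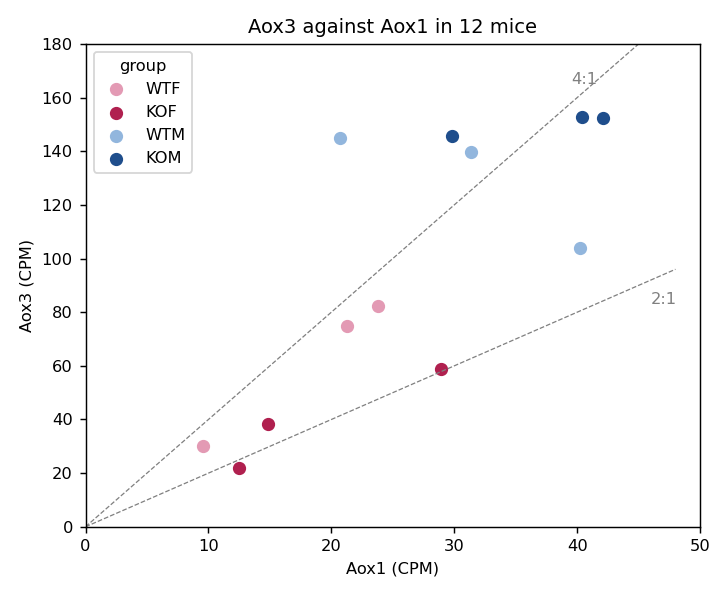
Aox3 (CPM, vertical axis) against Aox1 (CPM, horizontal axis) in each of the 12 mice, coloured by group, with dashed lines at ratios of 2 and 4. All males lie at or above 104 CPM of Aox3 and all females at or below 82.3 CPM, and the 3 KOF lie nearest to the line at a ratio of 2.

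Across the 12 libraries, the levels of the 5 genes were compared pair by pair. Pearson r of log2 CPM was 0.84 between Aox1 and Aox3, 0.76 between Fmo1 and Fmo2, 0.65 between Fmo5 and Aox1, and -0.72 between Fmo1 and Aox3. These values describe libraries that share sex and depth, and are given without a test.

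Among 6717 other genes, the 3 with the pattern most like each of these genes were named. For Fmo1 they were Pex7 (r = 0.91), which encodes a peroxisomal import receptor, Cyp17a1 (0.90) and Prkag2 (0.90). For Fmo2 they were Mpc2 (0.93), a subunit of the mitochondrial pyruvate carrier, Cpt1a (0.93), the carnitine palmitoyltransferase of liver, and Sult1d1 (0.92). For Fmo5 they were 1600002H07Rik, D5Ertd579e (0.94 each) and Hexim1 (0.93). For Aox1 they were Notch1 (0.95), Xpnpep3 (0.94) and Rcor1 (0.93), and for Aox3 Gclc (0.94), the catalytic subunit of the enzyme that starts glutathione synthesis, Ugt2b1 (0.94), a glucuronosyltransferase, and Cyp4v3 (0.94).

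The wider enzyme system was described from lists. Of the 5 relatives described (Fmo6, Fmo9, Aox2, Aox4 and Xdh), only Xdh, the xanthine oxidoreductase of purine breakdown, passed the filter, and it was not called by edgeR in any comparison. Of 6 genes for the molybdenum cofactor and other molybdoenzymes in the table, 5 or 6 were tested per comparison, and Mocs1, which acts in the first step of cofactor synthesis, was the single one called, in a comparison where 11.5% of all genes were. It was lower in KO females (10.5 ± 3.20 CPM) than in KO males (20.7 ± 3.07 CPM, SD, n = 3), with a log2 difference of -0.95 (SE 0.28, adjusted p = 0.0379).

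Of 15 other oxidoreductases of drug metabolism, 7 differed between KO females and KO males, 4 higher (Adh1, Adh5, Por and Cbr1) and 3 lower in females (Adh4, Aldh1a1 and Cyb5r3), where 5.69% of all genes were called higher and 5.78% lower, and with a median log2 difference of 0.28 beside -0.002 over all genes. None was called between WT females and WT males, where 1.39% of all genes were. Aldh1a1, which oxidises retinal, was at 427 ± 39.6 CPM in KOF and 754 ± 109 CPM in KOM (log2 difference -0.81, adjusted p = 0.00419). Adh5, the S-nitrosoglutathione reductase, was at 686 ± 70.2 CPM in KOF and 394 ± 64.7 CPM in KOM (0.81, adjusted p = 0.00549). In WT, where Adh5 was not called, the means had the reverse order (339 ± 99.9 CPM in WTF and 503 ± 108 CPM in WTM). Adh5 was not called for the difference of the KO effect between the sexes (0.255% of all genes were), so a change of order is not shown. Adh4, an alcohol dehydrogenase that also acts on retinol, had 75.4 ± 19.5 CPM in KOF and 156 ± 2.37 CPM in KOM (-1.03, adjusted p = 0.00204), Cyb5r3, the cytochrome b5 reductase, had -0.68 (adjusted p = 0.012), and Cbr1, a carbonyl reductase, 0.77 (adjusted p = 0.0145).

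Lists of targets and regulators were also described, beside 11.5% of all genes called between the KO sexes and 1.39% between the WT sexes. Among 8 targets of NRF2 tested between the KO sexes, Nqo1 was higher and Gclc and Me1 were lower in females, and none of 9 was called between the WT sexes. Neither of the 2 targets of the aryl hydrocarbon receptor that passed the filter was called in any comparison. Of 8 regulators of sex-biased liver genes tested, Prlr, the prolactin receptor, was called higher in females in both genotypes, and Hnf4a, a hepatocyte transcription factor, was called lower in KO females than in KO males.

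Of 16 known female-biased liver genes, 11 passed the filter in WT and 8 in KO, with 9 and 8 called higher in females. Of 16 known male-biased genes, 15 passed in each genotype, with 12 called lower in WT females and 15 in KO females. Only 1 of the 16 female-biased genes passed the filter in the comparison of males alone, and 10 of the 16 male-biased genes in that of females alone, so members that passed only through the sex where they are high had to differ, and these counts are a check of the sex labels and no more. Between KO and WT, edgeR called no gene of any list, in comparisons where it called 0.0% of all genes in females, 0.0% in males and 0.0102% over both sexes, and none for the difference between the sexes (0.255% of all genes), so these absences are not particular to the lists.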

How the data were processed

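RNA from livers of 12 mice was sequenced by the QuantSeq 3′ mRNA method. Read trimming, mapping and counting were done by the authors on BaseSpace (STAR, DESeq and the build mm10 are named in the submitters' processing notes, with no version), who deposited raw read counts per gene symbol, 1 table per sex; 0 columns of per-sample values were left unused. In 27 rows the symbol had been turned into a date (0.228% to 0.272% of counts per library), and Rn45s took 5.68% to 17.9% of counts; both stayed in. Genes were filtered with filterByExpr (minimum count 10), scaled by TMM and tested with edgeR 4.0.16 (glmQLFit, glmQLFTest, two-sided, Benjamini-Hochberg over all genes tested, threshold 0.05) in R 4.3.3. Each comparison used its own 6 libraries, and the difference between sexes and the fit over both sexes used all 12. SE is the log2 difference over the square root of F, and intervals are 95%. Levels are in CPM; likeness used log2 CPM (prior count 3) of genes that averaged 10 CPM or more, naming 3 genes each. Alternatives were DESeq2 1.42.0, limma 3.58.1 (voom with quality weights), RLE scaling, no filter beyond 1 count, all 12 libraries in each fit, no term for sex, and each library left out; the fits of sex over both genotypes were chosen after seeing the data. The scripts were tested on simulated counts.

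The genes and lists (relatives, molybdenum cofactor genes, other oxidoreductases, NRF2 targets, aryl hydrocarbon receptor targets, female-biased and male-biased genes, regulators, and cell type markers) were chosen with earlier results of these data known. From the relatives, cofactor and oxidoreductase lists, genes called in a comparison were named, at most 5 by p; Xdh, Adh1 and Por were named after their values were seen, as were called genes of the other lists. Promoter sequences are from RefSeq (GRCm38.p6): 6 windows matched 5 of the 6 genes, and Fmo1 had no entry. A related gene is not reported here. P-values measure the spread between libraries within a line.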

Additional observations from a re-analysis of the deposited data

How the results depend on the processing

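Over 29 values of the 5 tested genes, 384 alternative values were computed: 318 kept direction and side of the threshold, 21 gained and 17 lost the call, and 28 changed sign, none of them for a called difference. For Fmo1, limma-voom gave -0.080 in females, 0.018 in males and -0.085 for the difference between sexes, and DESeq2 0.0074 over both sexes; leaving out 1 library gave -0.18 to 0.13, -0.16 to 0.077, -0.15 to 0.17 and -0.11 to 0.056. For Aox1 in females, DESeq2 gave 0.025, RLE scaling 0.011 and no filter 0.0035, and leaving out 1 library -0.41 to 0.23. For Fmo2 over both sexes, leaving out 1 library gave -0.039 to 0.58.

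Of the 5 genes, between the WT sexes DESeq2 called 1, limma-voom 3, no filter 2 (Fmo2 and Aox3), all 12 libraries 1 (Fmo5) and both fits over the genotypes 5, and leaving out 1 library called 0 to 2. Between the KO sexes all 12 libraries called 2 (Fmo2 and Aox3), and leaving out 1 library called 2 to 5. In females, and for the difference between sexes, limma-voom called 1, Aox3.

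Calls over all genes moved too. For KO against WT in females, the count of 0 became 303 (DESeq2), 1058 (limma-voom), 484 (no filter) and 427 (all 12 libraries), and 0 to 936 with 1 library left out, the highest without WTF 1091. In males it became 6 (DESeq2) and 29 (no filter), and 0 to 3 with 1 left out. Over both sexes, the count of 1 became 2 (DESeq2) and 71 (no filter), and 0 to 2. Between the WT sexes, 130 became 338, 802, 536 and 505 in the same order of 4 settings, 597 over both genotypes, 941 without WTF 1091 there, and 43 to 740 with 1 left out. Between the KO sexes, 1044 became 352 with all 12 libraries and 486 to 1056 with 1 left out. For the difference between sexes, 25 became 260 (DESeq2), 558 (limma-voom) and 325 (no filter), and 0 to 522. The cause was not tested. No paired analysis was possible because no mouse number is shared between groups. At 40 reads in all, Fmo4 is limited by depth.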

Other observations

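Outside every comparison with a filter on low counts stood Fmo4. Without that filter, edgeR's quasi-likelihood test gave log2 differences of 1.25 for KO against WT in females (adjusted p = 0.704) and -2.33 in males (adjusted p = 0.958). Females differed from males by 2.46 in KO (adjusted p = 0.236) and -1.16 in WT (adjusted p = 0.7145). The difference of the KO effect between the sexes was 3.615 (adjusted p = 0.267). All of these values rest on 23 reads in 6 females and 17 reads in 6 males.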
